A study of Bos taurus with 6 samples.

Results

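The antioxidant and NRF2 response genes are 40 genes chosen by symbol, which cover the NRF2 regulators, haem and quinone reduction, glutathione synthesis and recycling, the glutathione peroxidases, the glutathione transferases, the thioredoxin system, the peroxiredoxins, and the superoxide dismutases with catalase. All 40 symbols were found among the 23475 genes listed in the deposited expression values. Of these, 39 had a mean of at least 0.5 FPKM (fragments scaled by transcript length and by the mapped total of the library) over the 6 libraries and were tested, among 12422 genes tested in all. The remaining member, GSTP1, lay below this minimum.

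Preadipocytes from bovine subcutaneous fat received the bta-miR-484 agomir, a chemically modified mimic of this miRNA, or agomir NC, the negative control agomir. RNA was collected 48 h later, with 3 libraries in each group, to learn which mRNAs differed once the miRNA was supplied. The fat came from several premature calves, and which calf or culture gave each of the 3 samples of a group is not stated, so the p-values measure a spread between samples that may be technical. The libraries had FPKM sums of 365977 to 379361, and agomir NC replicate 3 had the largest sum.

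NRF2, encoded by NFE2L2, is a transcription factor that KEAP1 holds in the cytoplasm and hands over to degradation until oxidants or electrophiles modify KEAP1. NRF2 then enters the nucleus and raises the transcription of enzymes that make glutathione, reduce thioredoxin, detoxify quinones and break down haem. Fat cells make hydrogen peroxide in their mitochondria and at their membranes, and these antioxidant systems set how much of it persists during fat cell differentiation.

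The labels call the cells adipocytes, and the marker genes were those of fibroblast-like precursor cells. The 10 preadipocyte and fibroblast markers summed to 22904 to 24193 FPKM per library, led by the collagen gene COL3A1 at a mean of 7623 FPKM, while DLK1 was listed at 0 in every library and CD34 lay at 0.383 to 0.783 FPKM. The 7 mature adipocyte markers summed to 7.67 to 8.68 FPKM per library, led by PPARG, and the adipokine genes ADIPOQ and LEP were at or near 0. Markers of endothelial cells summed to at most 4.54 FPKM with VWF as the most abundant, and those of macrophages and leukocytes to at most 8.27 FPKM with CD14 as the most abundant and PTPRC at no more than 0.119 FPKM. The muscle list summed to 197 to 220.2 FPKM, nearly all of it ACTA2, a gene that cultured fibroblasts also express, with MYOD1 and MYOG listed at 0. Epithelial markers summed to at most 0.379 FPKM and red blood cell markers to at most 0.0570 FPKM. Among these markers DCN was lower with the agomir (log2 fold change -0.12), FABP4 was lower (-0.49) and PPARG was higher (0.23) at an unadjusted p under 0.05, with limma adjusted p = 0.376 for DCN, adjusted p = 0.363 for FABP4 and adjusted p = 0.407 for PPARG. Of the 15 alternative settings, DCN passed that p in 10, FABP4 in 13 and PPARG in 12. Quantile normalisation gives a gene the same value in libraries where it has the same rank. DCN, of rank 7 by its mean, had no difference under that setting, which therefore cannot tell whether DCN differed. The part of these marker differences in the results that follow was not tested.

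The antioxidant genes were expressed at widely different levels, which can be set side by side because FPKM is normalised for transcript length. SOD2, the mitochondrial superoxide dismutase, had the highest mean at 478 FPKM and ranked 110 among all genes listed. It was followed by PRDX1 at 348 FPKM, TXN at 278 FPKM, GPX4 at 272 FPKM and PRDX2 at 224 FPKM. In all, 10 members had means over 100 FPKM, 23 had means between 10 and 100 FPKM, and 7 had means under 10 FPKM. GPX3, a secreted glutathione peroxidase, was the lowest tested member at 2.65 FPKM, which set a 181-fold range from SOD2 to GPX3. In this order of 40 levels, 14 of the 39 neighbouring pairs had ranges over the 6 libraries that did not overlap; the ranges of TXN and GPX4, for example, overlapped, as did the run of 9 genes from GPX8 to TXNRD1 from each gene to the next. The 40 genes together made up 0.859% to 0.899% of the FPKM sum of a library, with totals of 3198 ± 36.9 FPKM with the agomir and 3267 ± 127 FPKM with agomir NC (SD, n = 3).

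**Figure D1:**
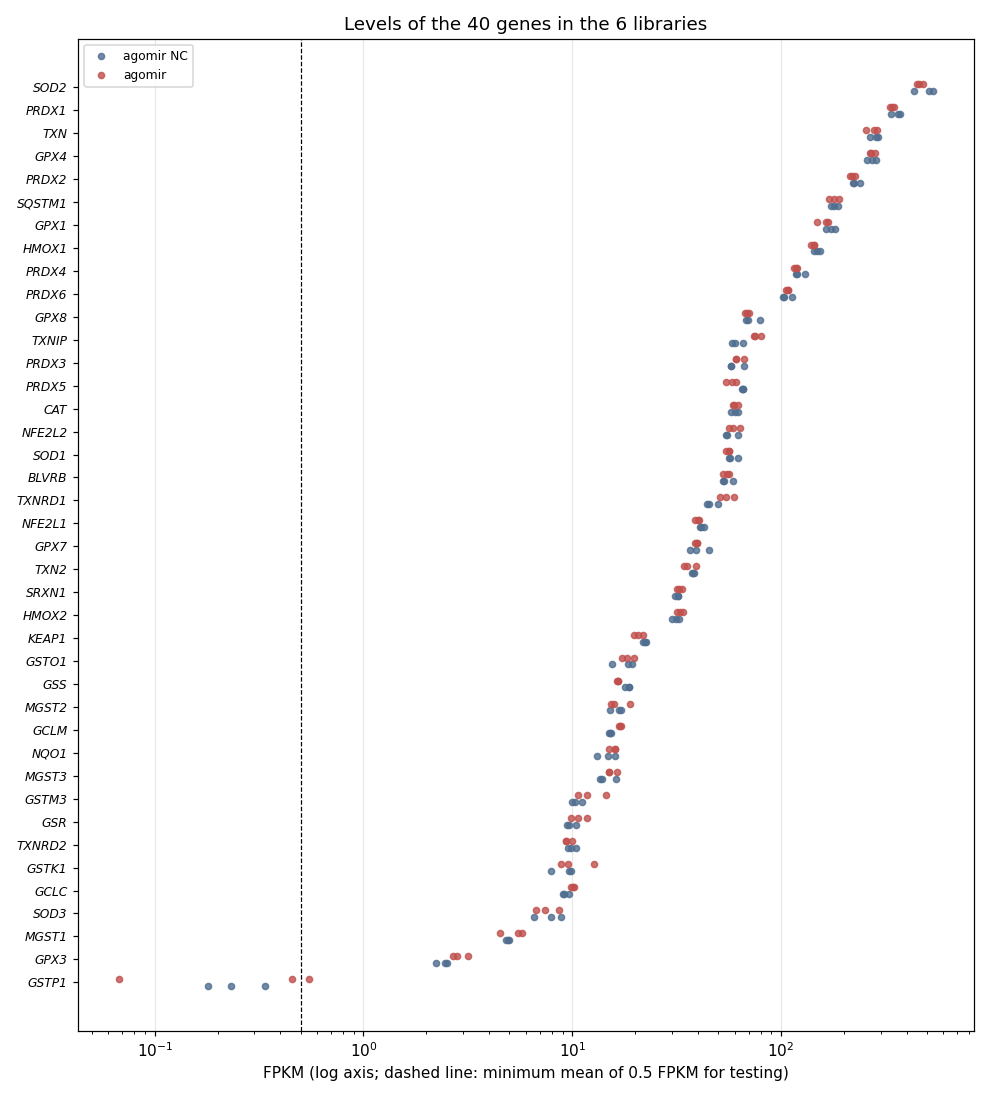
FPKM of the 40 antioxidant and NRF2 response genes in each of the 6 libraries, on a log axis, ordered by mean; red points are agomir libraries and blue points agomir NC libraries. Means run from 478 FPKM for SOD2 to 0.304 FPKM for GSTP1, which lies below the dashed line at 0.5 FPKM.

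Supplying bta-miR-484 left most of these genes near their control level. TXNIP, TXNRD1 and GCLM rose and GSS and PRDX5 fell, by 24.9% for TXNIP, the largest difference among them. These 5 of 39 members (12.8%) had an unadjusted limma p under 0.05, against 10.9% of all genes tested. By direction, 3 members were higher (7.69%, against 6.63% of all genes) and 2 were lower (5.13%, against 4.31%), so the shares were close to the background and are no result about the members as a group. None of the 39 passed an adjusted p of 0.05 in limma with Benjamini-Hochberg adjustment, where 1 gene of 12422 (0.00805%) did. The libraries of the 2 groups did not overlap in 9 members (23.1%, against 17.2% of all genes), of which 5 were higher (12.8%, against 10.9%) and 4 lower (10.3%, against 6.36%). Among the 9693 genes expressed at or above the level of GPX3, 11.7% passed the unadjusted p and 18.5% had groups that did not overlap.

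The median log2 fold change of the members was 0.0053, against 0.013 for all genes tested, with 20 positive and 19 negative values. Its sign was not stable, since it was -0.0099 with median-ratio scaling and ran from -0.025 without agomir NC replicate 1 to 0.042 without agomir NC replicate 3. All fold changes are on the log2(FPKM + 0.5) scale, which understates the change of low genes, and a positive value means higher with the agomir. In size, the median absolute log2 fold change was 0.063 for members and 0.075 for all genes. For 34 of the 39, the 95% interval of the fold change stayed within a 25% rise and the matching drop; the exceptions were TXNIP, TXNRD1, GPX3, GSTM3 and GSTK1. With 3 libraries per group the exact permutation test of a single gene has 20 labelings and cannot give a p below 0.1, which is the value that each of the 9 members with groups that did not overlap had. In these bulk RNA samples, fewer cells of a type and less RNA per cell cannot be told apart.

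**Figure D2:**
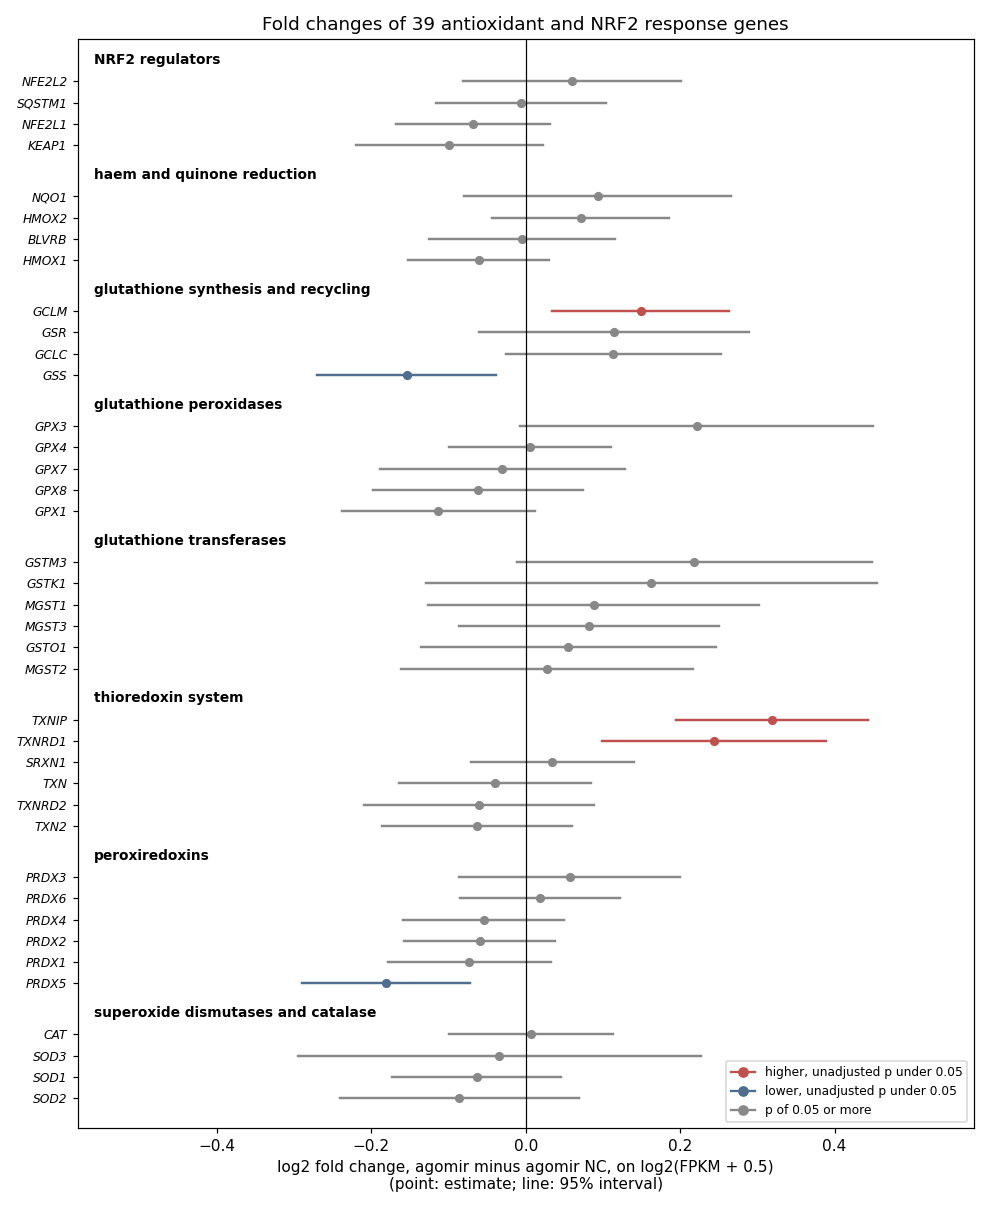
Log2 fold change (agomir minus agomir NC, on log2(FPKM + 0.5)) of the 39 tested genes by role, with points for the limma estimate and lines for its 95% interval. TXNIP at 0.32, TXNRD1 at 0.24 and GCLM at 0.15 (red) and GSS at -0.15 and PRDX5 at -0.18 (blue) had an unadjusted p under 0.05.

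Among the NRF2 regulators, which include the mRNA of NRF2 itself, 0 of 4 passed the unadjusted p, against 10.9% of all genes. So few genes give such a count no meaning, here and in the roles below. NFE2L2 stood at 56.6, 63.5 and 58.7 FPKM in agomir replicates 1 to 3 and at 55.3, 54.3 and 62.0 FPKM in agomir NC replicates 1 to 3. The groups overlapped, since agomir NC replicate 3 exceeded 2 of the agomir libraries, and the log2 fold change was 0.060 (SE 0.0629, limma adjusted p = 0.770). Without agomir NC replicate 3 it was 0.12 and the groups did not overlap, and without agomir replicate 2 it was 0.014. KEAP1, the adaptor that presents NRF2 for ubiquitination, measured 20.7, 21.7 and 19.8 FPKM in the agomir libraries, compared with 21.8, 22.6 and 22.2 FPKM in the controls. Its 3 agomir libraries were the lowest, by a narrow gap between agomir replicate 2 and agomir NC replicate 1, with a log2 fold change of -0.099 (SE 0.0539, limma adjusted p = 0.543). That separation of the KEAP1 groups was lost when each library was scaled to the same FPKM sum, and its log2 fold change ran from -0.067 without agomir replicate 3 to -0.13 without agomir replicate 2, where it passed the unadjusted p.

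NFE2L1, which encodes NRF1, an NRF2 relative at the endoplasmic reticulum that drives proteasome genes, measured 40.1, 38.9 and 40.4 FPKM in the agomir libraries and 40.9, 41.6 and 42.7 FPKM in the control libraries. Again the agomir libraries lay below all controls, with a log2 fold change of -0.068 (SE 0.0442, limma adjusted p = 0.614). SQSTM1, the autophagy receptor p62 that binds KEAP1, was the most abundant of these 4 regulators, at 189.6, 179 and 171 FPKM with the agomir against 174, 179.9 and 187 FPKM with agomir NC. Its groups overlapped fully, and the sign of its log2 fold change (-0.0063) turned with quantile normalisation and with scaling to a common sum.

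Of the genes of haem and quinone reduction, 0 of 4 passed the unadjusted p, against 10.9% of all genes. HMOX1, the inducible haem oxygenase and a widely used readout of NRF2 activity, gave 144, 139 and 145 FPKM with the agomir and 148, 144 and 154 FPKM with agomir NC. The agomir values tended to lie at the lower end, with an overlap at agomir NC replicate 2, and the log2 fold change was -0.061 (SE 0.0406, limma adjusted p = 0.626), or -0.038 without agomir NC replicate 3. NQO1, the quinone reductase, gave 15.9, 14.9 and 16.1 FPKM against 13.1, 14.9 and 16.1 FPKM. Apart from the low value of agomir NC replicate 1, its libraries covered the same range in both groups, with a log2 fold change of 0.093 (SE 0.0772, limma adjusted p = 0.699). It ran from 0.016 without that library to 0.16 without agomir NC replicate 3. The constitutive haem oxygenase HMOX2 and the biliverdin reductase BLVRB had log2 fold changes of 0.071 and -0.0051, and that of BLVRB turned positive with scaling to a common sum. For HMOX2 the value ran from 0.043 without agomir NC replicate 1 to 0.097 without agomir NC replicate 3.

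Of the 4 genes of glutathione synthesis and recycling, 1 was higher (against 6.63% of all genes) and 1 was lower (against 4.31%) at the unadjusted p. These were GCLM and GSS, and so few calls are no result about the pathway. GCLM, the modifier subunit of glutamate-cysteine ligase, was at 16.7, 16.9 and 17.1 FPKM in agomir replicates 1 to 3 and at 15.1, 15.3 and 15.2 FPKM in the controls. Each group was tight, and every agomir library lay above every control, at 16.9 ± 0.213 against 15.2 ± 0.142 FPKM (SD, n = 3). The log2 fold change was 0.15 (SE 0.0512), with an unadjusted limma p of 0.0164, an adjusted p of 0.363 and an exact permutation p of 0.1. Without agomir replicate 3 the log2 fold change of GCLM was 0.14 and missed the unadjusted p. GCLC, the catalytic subunit of the same ligase, was at 10.2, 10.1 and 9.92 FPKM against 8.997, 9.15 and 9.68 FPKM. Its groups did not overlap either, with agomir NC replicate 3 closest to the agomir libraries, and its log2 fold change of 0.11 (SE 0.0620) had an adjusted p of 0.546 in limma.

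GSS, glutathione synthetase, which adds glycine in the last step, measured 16.3, 16.6 and 16.5 FPKM in the agomir libraries, compared with 18.7, 17.8 and 18.7 FPKM in the controls. All 3 agomir libraries lay below all 3 controls, at 16.5 ± 0.144 against 18.4 ± 0.497 FPKM (SD, n = 3). The log2 fold change was -0.15 (SE 0.0517), with an unadjusted limma p of 0.0144, an adjusted p of 0.354 and an exact permutation p of 0.1. GSR, the reductase that returns oxidised glutathione to its reduced form, had a log2 fold change of 0.11 (SE 0.0779, limma adjusted p = 0.628) with overlapping groups, and ran from 0.052 without agomir replicate 2 to 0.17 without agomir replicate 1. GSS was the most abundant of these 4 genes in the control libraries, whereas GCLM and GSS stood at nearly equal levels in the agomir libraries.

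No glutathione peroxidase passed the unadjusted p, which 10.9% of all genes passed, although GPX3 came close. GPX3, the secreted peroxidase, gave 2.81, 2.68 and 3.17 FPKM with the agomir and 2.52, 2.47 and 2.22 FPKM with agomir NC. All agomir libraries were above all controls, with a log2 fold change of 0.22 (SE 0.102, limma adjusted p = 0.467) at a level where the pseudocount of 0.5 FPKM weighs on the estimate. GPX1, the main cytosolic peroxidase, gave 167, 149 and 164 FPKM against 164, 175 and 181 FPKM. Its groups overlapped because agomir NC replicate 1 lay below 2 of the agomir libraries, and the log2 fold change was -0.11 (SE 0.0558, limma adjusted p = 0.502). The most abundant of the 5, GPX4, which reduces lipid peroxides in membranes and protects from ferroptosis, gave 271, 266 and 281 FPKM against 272, 257 and 286 FPKM. These values overlapped throughout, and the log2 fold change of 0.0053 (SE 0.0468) turned negative with median-ratio scaling. The endoplasmic reticulum peroxidases GPX7 and GPX8 had log2 fold changes of -0.030 and -0.062, which turned positive, at 0.055 and 0.0073, without agomir NC replicate 3. Leaving out single libraries moved GPX1 from -0.062, without agomir replicate 2, to -0.15, where it passed the unadjusted p with either agomir replicate 1 or agomir NC replicate 1 left out. For GPX3 the range was 0.16, without agomir replicate 3, to 0.27, where it passed that p without agomir replicate 2, as it did at 0.22 with no variance trend.

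Among the glutathione transferases, which join glutathione to electrophiles, 0 of 6 tested passed the unadjusted p, against 10.9% of all genes. The 6 log2 fold changes ran from 0.027 for MGST2 to 0.22 for GSTM3, but the sign was not stable for MGST2, at -0.00058 with quantile normalisation, -0.065 without agomir replicate 1 and -0.020 without agomir NC replicate 1, nor for GSTO1, at -0.034 without agomir NC replicate 2. GSTO1, the omega class enzyme and the most abundant of them, gave 17.2, 19.8 and 18.2 FPKM with the agomir and 19.3, 15.6 and 18.4 FPKM with agomir NC. The groups of GSTO1 were fully mixed, with a log2 fold change of 0.055 (SE 0.0850, limma adjusted p = 0.857). GSTM3 averaged 12.4 ± 1.98 FPKM against 10.5 ± 0.578 FPKM (SD, n = 3), and it belongs to the mu class, whose similar copies can share reads, so its level is uncertain. The log2 fold change of GSTM3 (SE 0.103, limma adjusted p = 0.477) rested largely on agomir replicate 2, without which it was 0.099. It passed the unadjusted p at 0.31 without agomir replicate 1 and at 0.23 with scaling to a common sum. GSTK1, MGST1 and MGST3 lay between these with overlapping groups. Leaving out single libraries gave 0.038 to 0.16 for MGST3, which passed the unadjusted p without agomir NC replicate 3. GSTK1 was at 0.014 without agomir replicate 3, and MGST1 ran from 0.023 to 0.18. GSTP1, the pi class enzyme that is abundant in many cultured cells, was below the minimum for testing, with values from 0.0673 to 0.548 FPKM, both in the agomir group.

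In the thioredoxin system, 2 of 6 genes were higher with the agomir at the unadjusted p (against 6.63% of all genes) and 0 were lower (against 4.31%). The higher genes were TXNIP, the inhibitor, and TXNRD1, the cytosolic reductase. The median log2 fold change of the 6 genes was -0.0028, with 3 positive and 3 negative values. TXNIP, which binds reduced thioredoxin and also restrains glucose uptake, was at 75.5, 79.9 and 74.1 FPKM in agomir replicates 1 to 3 and at 59.9, 58.2 and 65.8 FPKM in agomir NC replicates 1 to 3. The lowest agomir library stood well above the highest control, at 76.5 ± 3.03 against 61.3 ± 3.97 FPKM (SD, n = 3), a difference of 24.9%. The log2 fold change was 0.32 (SE 0.0553), with an unadjusted limma p of 0.000213, an adjusted p of 0.122 and an exact permutation p of 0.1, higher in 3 of 3 libraries. TXNRD1, the selenocysteine enzyme that reduces cytosolic thioredoxin with NADPH, reached 51.2, 59.3 and 54.8 FPKM in the agomir libraries, compared with 49.7, 44.4 and 45.2 FPKM in the controls. All agomir values were above all control values, with agomir replicate 1 and agomir NC replicate 1 closest together, at 55.1 ± 4.07 against 46.5 ± 2.88 FPKM (SD, n = 3). Its log2 fold change was 0.24 (SE 0.0646), with an unadjusted limma p of 0.00400, an adjusted p of 0.296 and an exact permutation p of 0.1.

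Thioredoxin itself did not pass the test. TXN, the cytosolic thioredoxin, gave 279.5, 254 and 289 FPKM with the agomir and 285, 267 and 293 FPKM with agomir NC. Its groups overlapped, and its log2 fold change of -0.040 (SE 0.0555, limma adjusted p = 0.835) turned positive, to 0.016, with quantile normalisation. The mitochondrial partners TXN2 and TXNRD2 had log2 fold changes of -0.063 and -0.060, and SRXN1, sulfiredoxin, which repairs overoxidised peroxiredoxins, had 0.034, and none of these 3 genes passed the unadjusted limma p. Leaving out single libraries gave -0.12 to -0.024 for TXN2, -0.095 to -0.027 for TXNRD2 and 0.015 to 0.053 for SRXN1.

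Of the 6 peroxiredoxins, thiol peroxidases that reduce hydrogen peroxide, only PRDX5 passed the unadjusted p, which 10.9% of all genes passed. PRDX5, found in mitochondria, peroxisomes and cytosol, measured 58.4, 54.4 and 60.6 FPKM in the agomir libraries, compared with 65.6, 65.9 and 65.1 FPKM in the controls. The controls were nearly identical and all 3 agomir libraries were below them, at 57.8 ± 3.15 against 65.6 ± 0.428 FPKM (SD, n = 3). The log2 fold change was -0.18 (SE 0.0486), with an unadjusted limma p of 0.00427, an adjusted p of 0.301 and an exact permutation p of 0.1. PRDX1, the most abundant peroxiredoxin, gave 339, 331 and 349 FPKM against 366, 335 and 371 FPKM. The groups of PRDX1 overlapped at agomir NC replicate 2, and its log2 fold change of -0.073 (SE 0.0471, limma adjusted p = 0.614) became -0.12 and passed the unadjusted p without that library, and became -0.045 without agomir NC replicate 3. The remaining 4 had log2 fold changes from -0.060 for PRDX2 to 0.057 for PRDX3, the mitochondrial form, with PRDX4 at -0.055 and PRDX6 at 0.019. Leaving out single libraries gave -0.082 to -0.027 for PRDX2, 0.012 to 0.12 for PRDX3 and -0.079 to -0.012 for PRDX4.

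The superoxide dismutases and catalase had 0 of 4 genes past the unadjusted p, against 10.9% of all genes. SOD2 gave 479, 459.8 and 451 FPKM with the agomir and 436, 534 and 511 FPKM with agomir NC. Its controls were spread more widely than its agomir libraries and lay on both sides of them, so the groups overlapped, with a log2 fold change of -0.086 (SE 0.0689, limma adjusted p = 0.686). This value rested on single controls: it was -0.17 and passed the unadjusted p without agomir NC replicate 1, the lowest of the 6 libraries, and it was -0.027 without agomir NC replicate 2, the highest. SOD1, the cytosolic copper-zinc enzyme, and SOD3, the extracellular one, had log2 fold changes of -0.063 and -0.034. With single libraries left out, SOD1 ran from -0.086 to -0.021. CAT, the peroxisomal catalase, had 0.0069, which turned negative with median-ratio scaling.

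**Figure D3:**
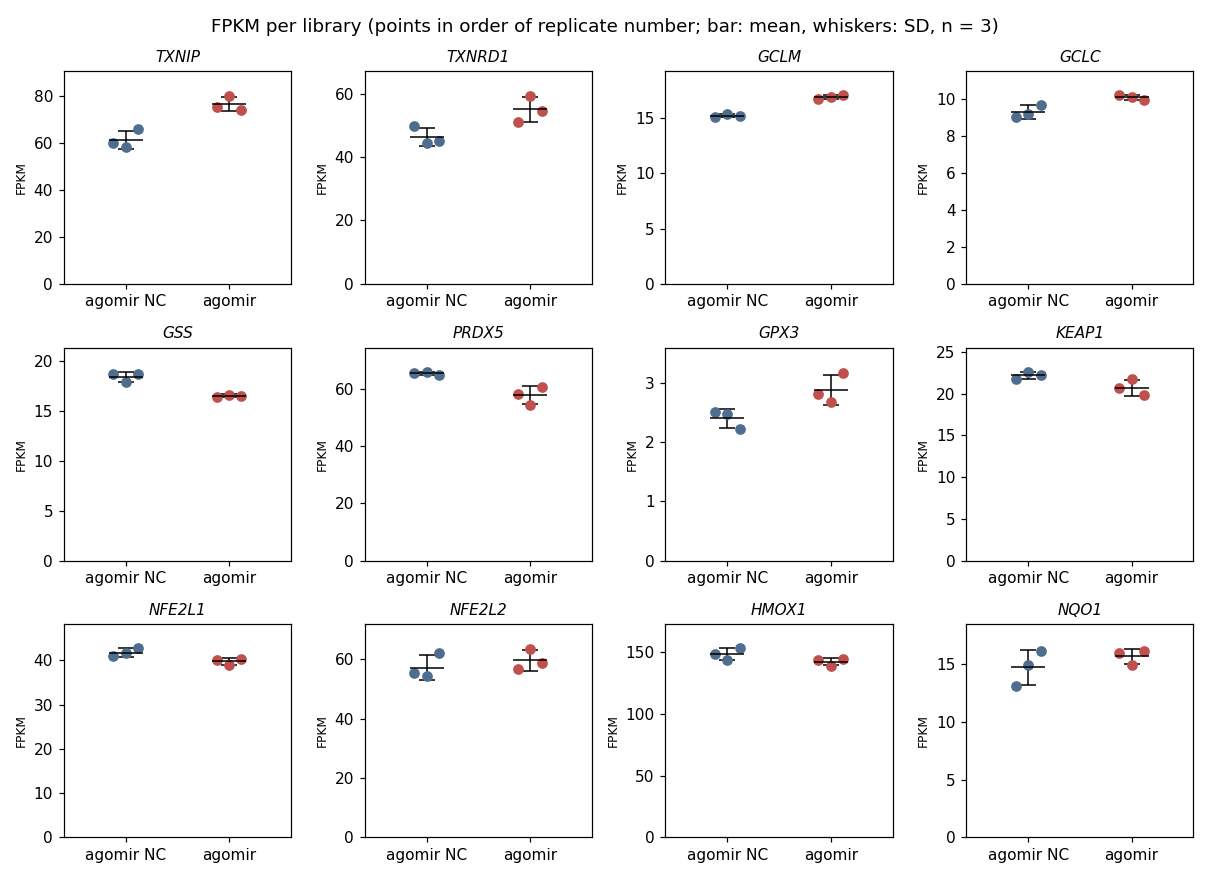
FPKM in each library for 12 of the genes, with points in order of replicate number (blue for agomir NC, red for agomir), bars for means and whiskers for SD (n = 3), on axes that start at 0. TXNIP, TXNRD1, GCLM, GCLC and GPX3 had all agomir points above the controls, GSS, PRDX5, KEAP1 and NFE2L1 had them below, and NFE2L2, HMOX1 and NQO1 overlapped.

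Sorted by what is known of their control, 10 members are classic NRF2 targets, namely HMOX1, NQO1, GCLC, GCLM, GSR, TXN, TXNRD1, SRXN1, PRDX1 and SQSTM1. Of these, GCLM and TXNRD1 were higher (2 of 10 genes, against 6.63% of all genes tested) and 0 were lower (against 4.31%) at the unadjusted p, and the median log2 fold change was 0.064. The 29 other tested members had 1 higher (TXNIP, 3.45%) and 2 lower (GSS and PRDX5, 6.90%) with a median of -0.0051, and no difference between these subsets was tested. The 5 selenocysteine enzymes GPX1, GPX3, GPX4, TXNRD1 and TXNRD2 had log2 fold changes from -0.11 to 0.24. By compartment, log2 fold changes ran from -0.086 to 0.057 for the mitochondrial enzymes TXN2, TXNRD2, PRDX3 and SOD2, from -0.062 to -0.030 for PRDX4, GPX7 and GPX8 of the endoplasmic reticulum, and from -0.034 to 0.22 for the secreted GPX3 and SOD3. None of these 9 genes passed the unadjusted limma p, which 10.9% of all genes passed, and so few genes give that count no meaning. PRDX5, which is also found in mitochondria, was not counted as mitochondrial here. The signs of GPX7 and GPX8 were not stable, since both were positive without agomir NC replicate 3.

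A further 104 genes of the same pathways were examined in 7 lists, of which 103 were listed and 92 tested. At the unadjusted p, 1 was higher (1.09%, against 6.63% of all genes tested) and 6 were lower (6.52%, against 4.31%), with a median log2 fold change of -0.034 and 0 past an adjusted p of 0.05 in limma. This split depended on the setting: 0 were higher and 10 lower with quantile normalisation, 2 higher and 4 lower with scaling to a common sum, and 5 higher and 7 lower without agomir NC replicate 1. Among the other NRF2 regulators, BACH1, the repressor that competes with NRF2 at antioxidant response elements, was higher at 7.41 ± 0.646 against 6.40 ± 0.229 FPKM (SD, n = 3; log2 fold change 0.20, adjusted p = 0.423 in limma). MAFK, a small MAF partner of both BACH1 and NRF2, was lower at 3.08 ± 0.526 against 3.81 ± 0.264 FPKM (SD, n = 3), with a log2 fold change of -0.27. Its groups overlapped, its adjusted p in limma was 0.438, and it passed the unadjusted p under 8 of the 15 alternative settings, as BACH1 did under 9.

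Among the other glutathione genes, 0 of 15 tested were higher (against 6.63% of all genes) and 2 were lower (13.3%, against 4.31%). GGT5, a gamma-glutamyl transferase that cleaves extracellular glutathione conjugates, had a log2 fold change of -0.41 (limma adjusted p = 0.357), and GSTT1, a theta class transferase with overlapping groups, had -0.28 (limma adjusted p = 0.407). GGT5 passed the unadjusted p under 13 of the 15 alternative settings and GSTT1 under 11. Leaving out single libraries gave -0.52 to -0.27 for GGT5 and -0.36 to -0.18 for GSTT1. The cystine transporter gene SLC7A11, an NRF2 target that supplies cysteine for glutathione, averaged 17.5 ± 0.989 against 16.0 ± 0.231 FPKM (SD, n = 3), a gene named after its values were seen. Its log2 fold change of 0.12 (limma adjusted p = 0.508) missed the unadjusted p, which it passed under 1 of the 15 settings. A list of 17 genes held glutaredoxins, methionine sulfoxide reductases and others, among them TXNL1, TXNRD3, PARK7, SESN1 and CCS. Of these 17, 1 was lower (5.88%, against 4.31% of all genes). This was TXNRD3, a thioredoxin-glutathione reductase, at 3.00 ± 0.323 against 3.86 ± 0.497 FPKM (SD, n = 3; log2 fold change -0.32, adjusted p = 0.385 in limma). TXNRD3 passed the unadjusted p under 12 of the 15 settings and missed it without agomir replicate 3, agomir NC replicate 1 or agomir NC replicate 2.

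Among 15 other NRF2 target genes, 0 were higher (against 6.63% of all genes) and 2 were lower (13.3%, against 4.31%). PHGDH, the first enzyme of serine synthesis, was at 217 ± 1.10 against 234 ± 1.98 FPKM (SD, n = 3), a small difference with tight groups and a log2 fold change of -0.11 (adjusted p = 0.333 in limma). AKR1A1, an aldehyde reductase, was at 60.2 ± 1.70 against 64.8 ± 1.51 FPKM (SD, n = 3; log2 fold change -0.11, adjusted p = 0.423 in limma). Of the 15 settings, PHGDH passed the unadjusted p under 14 and AKR1A1 under 8. The 10 genes that supply NADPH and the 18 genes of selenoprotein synthesis and other selenoproteins had 0 genes past the unadjusted limma p. So did the 7 tested of 14 oxidant producing enzymes, while 10.9% of all genes tested passed it. Among the oxidant producers, NOX4 averaged 0.0285 FPKM and was not tested.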

How the data were processed

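RNA-seq values of 6 bovine libraries (3 agomir, 3 agomir NC) were used as the authors deposited them, as FPKM per gene. The submitters' processing notes name fastp, HISAT2, StringTie and the ARS-UCD1.2 assembly, without versions. Read counts were not used here, which leaves sequencing depth unknown: the log2 ratios of 2158 low genes between any pair of libraries put at most 8 genes into a bin of 0.002, too few to recover whole reads. FPKM depends on the annotated transcript length and on the other genes of a library, so a shift in a few abundant genes moves all values.

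Values were taken as log2(FPKM + 0.5) for genes that averaged at least 0.5 FPKM, and groups were compared with limma 3.58.1 in R 4.3.3 (linear model, moderated two-sided test with a variance trend, unpaired). Benjamini-Hochberg adjustment covered the 12422 genes tested. The unadjusted p of 0.05 used for the counts is the threshold of the study's statistics section. Exact two-sided permutation tests used the 20 labelings of the libraries. The limma step was tested on simulated data. The RefSeq gene table (ARS-UCD2.0) was searched for synonyms, and all member symbols matched directly.

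Values per library are given for members past the unadjusted p, members without overlap between groups, the 3 largest fold changes in each direction, the most abundant gene of each role, and NFE2L2, KEAP1, HMOX1, NQO1 and TXNIP. Members, roles and lists were chosen with earlier results of these data known. Alternatives were pseudocounts of 0.1 and 1, no minimum level, a minimum mean of 1 FPKM, median-ratio, quantile and common-sum scaling, no variance trend, a replicate block, and leaving out each library. ABCC4, of the further lists, and promoter or protein sequences were not analysed here.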

Additional observations from a re-analysis of the deposited data

How the results depend on the processing

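Over 15 alternative settings, the 5 members past the unadjusted p kept their direction in 75 of 75 values and missed that p in 1, GCLM without agomir replicate 3. Of all 585 single values, 549 kept direction and side of the threshold, 11 passed it in addition and 24, of 11 genes with small differences, changed sign. These were GPX4 at -0.0099 and CAT at -0.0082 with median-ratio scaling, MGST2 at -0.00058, TXN at 0.016 and SQSTM1 at 0.024 with quantile normalisation, and SQSTM1 at 0.0094 and BLVRB at 0.011 with scaling to a common sum. Leaving out single libraries gave log2 fold changes of -0.033 to 0.042 for GPX4, -0.095 to 0.055 for GPX7, -0.11 to 0.0073 for GPX8, -0.034 to 0.12 for GSTO1, -0.065 to 0.084 for MGST2, -0.079 to 0.013 for TXN, -0.0072 to 0.061 for PRDX6, -0.14 to 0.057 for SOD3, -0.025 to 0.034 for CAT, -0.046 to 0.030 for SQSTM1 and -0.034 to 0.044 for BLVRB. Members with groups that did not overlap numbered 10 to 16 with a library left out. They numbered 15 without agomir replicate 1 and 16 when agomir NC replicate 3 was dropped. Fewer libraries separate more easily, and 25.6% to 29.3% of all genes did so with a library left out. With median-ratio scaling these members numbered 12 of 39, HMOX1, PRDX4 and SOD1 in addition, against 17% of all genes. Members higher at the unadjusted p numbered 2 (without agomir replicate 3) to 4, and members lower numbered 2 to 4 (4 without agomir NC replicate 1: GSS, GPX1, PRDX5 and SOD2). Over the 15 settings, 8.09% to 11.5% of all genes passed that p in either direction, with 11.5% without agomir NC replicate 1. The further lists had 2 to 12 genes past the unadjusted p. Of their 92 tested genes, 4 passed when agomir replicate 2 was left out, against 8.09% of all genes. For agomir NC replicate 1 the count was 12 (against 11.5%), and for agomir NC replicate 3 it was 2 (against 9.01%). The cause was not tested. Replicate numbers gave no sign of pairing: same-numbered deviations correlated at -0.051, 0.053 and 0.039, and those of different numbers at -0.109 to 0.072. These values cannot show whether libraries were paired by calf or culture. With a replicate block, 4 members were higher (GSTM3 in addition, at 0.22), 2 lower and 0 past the adjusted p. All other single calls of members were as without the block. In the further lists, 0 genes were higher and 6 lower at the unadjusted p, which 10.1% of all genes passed. BACH1 and AKR1A1 missed that p with the block, and MSRB2 passed it in addition. Depth is unknown, so counting error cannot be given; it matters most for GPX3 and GSTP1. Protein levels, enzyme activity and oxidant levels were not measured here.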

Other observations

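The ratios of TXNIP and TXNRD1 to TXN, chosen after the values were seen, did not overlap between the groups. TXNIP and TXNRD1 were already higher without overlap, so these ratios restate those differences and are no further result. The ratio of TXNIP to TXN in FPKM was 0.270, 0.314 and 0.257 in agomir replicates 1 to 3 and 0.210, 0.218 and 0.224 in agomir NC replicates 1 to 3. The ratio of TXNRD1 to TXN was 0.183, 0.233 and 0.190 against 0.174, 0.166 and 0.154. Agomir replicate 2 had the highest value of both ratios, and the lowest TXN level of the 6 libraries.

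In glutathione synthesis, the ratio of GSS to GCLM was 0.978, 0.983 and 0.964 with the agomir and 1.24, 1.16 and 1.23 with agomir NC. GSS was thus below GCLM in every agomir library and above it in every control. The ratio sets a gene already lower without overlap over one already higher without overlap. Its separation restates those differences and is no further result. The ligase subunits kept overlapping ratios, with GCLM to GCLC at 1.68 ± 0.0440 against 1.64 ± 0.0641 (SD, n = 3). The ratio of NFE2L2 to KEAP1 was 2.74, 2.92 and 2.96 against 2.54, 2.40 and 2.79, which overlapped at agomir NC replicate 3.

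Extreme values of the members were not spread evenly over the libraries. Agomir NC replicate 3, which had the largest FPKM sum, was the highest library for 14 of the 40 genes (35.0%, against 19.4% of all genes tested), and for 8 after scaling to a common sum. Agomir NC replicate 1 was the lowest for 14 of the 40 (35.0%, against 15.6% of all genes tested), and for 13 after that scaling. After it, agomir replicate 2 was the highest library for 10 of the 40 and the lowest for 10, and agomir replicate 3 was the highest for 9. Shares of all genes are not given for the scaled counts. The antioxidant genes varied less between replicates than genes at large, with median coefficients of variation of 3.99% with the agomir and 5.22% with agomir NC, against 6.44% and 7.06% over all genes tested; they were also more highly expressed than most, and the part of level in this was not tested.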
